A study of Homo sapiens with 6 samples.

Results

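PABPN1 and 8 other factors that make, bind or measure out the poly(A) tail of messenger RNA were followed in Hep G2 cells with and without EFTUD2 overexpression. The 9 genes were selected on name as poly(A) binding proteins, poly(A) polymerases and cleavage factors, and PABPN1 in addition was chosen by its fall in the EFTUD2 libraries. They are 9 of the 23524 genes in the table and 9 of the 17222 whose mean over the 6 libraries reached 0.1 FPKM (sequenced fragments of a gene, divided by the length of its transcript and the size of the library) and were tested. Because PABPN1 was selected on the contrast shown here, its values are described without a test, and the tests below concern the other 8 genes.

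Hep G2 cells come from a human liver tumor and grow as an established line. One group of 3 libraries came from cells infected with the empty lentivirus vector (control), and the other 3 came from cells infected with a lentivirus carrying EFTUD2, a GTPase of the U5 part of the spliceosome. Both lines were stable and selected in puromycin, and nothing in the labels says that the 3 libraries of a group came from separate cultures, so that p-values measure only the spread between these libraries. The study asked which transcripts changed when EFTUD2 was raised.

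EFTUD2 (Entrez gene 9343) had levels of 41.14, 54.35 and 46.34 FPKM in the 3 controls, in order of replicate number as in all lists of values here, and of 106.62, 102.9 and 109.48 FPKM in the 3 EFTUD2 libraries, without overlap. Its limma adjusted p was 0.13, and 0.031 without EFTUD2 replicate 3. The summed FPKM of a library lay between 404342 and 434542, and the number of reads behind a value is unknown. All 8 hepatocyte markers were tested, with a summed level of 6880 to 10500 FPKM in control and 9150 to 14000 FPKM in EFTUD2 libraries. SERPINA1 and APOB were higher without overlap, with EFTUD2 means at 158% and 121% of control. ALB, APOA1 and TF overlapped with higher means. AFP, TTR and HNF4A overlapped with lower means, at 75.1%, 84.3% and 86.1% of control. The 5 macrophage markers summed to 0.62 to 1.04 FPKM in control and 1.5 to 2.51 FPKM in EFTUD2 libraries, without overlap between groups. Of these, CD14 alone was at 0.86, 0.6 and 1.03 FPKM in control and at 1.41, 2.06 and 2.51 FPKM in EFTUD2 libraries. The other macrophage markers were at no more than 0.12 FPKM in any library, with TYROBP listed at 0 throughout. Fibroblast markers, 5 in number, summed to 0.1 to 0.15 FPKM in control and 0.26 to 4.14 FPKM in EFTUD2 libraries. Their sums did not overlap either, and COL1A2 was listed at 0 throughout. The 5 endothelial markers summed to 1.09 to 1.53 FPKM in control and 1.29 to 1.6 FPKM in EFTUD2 libraries. Of the 3 tested, PECAM1 was lower without overlap, with a mean of 1.01 FPKM in control and 0.657 FPKM in EFTUD2 libraries. CDH5 (0.07 and 0.25 FPKM) and VWF (0.25 and 0.533 FPKM) were higher without overlap. The mesenchymal and basal genes VIM, KRT17 and LDHB summed to 1.3 to 1.99 FPKM in control and 14.8 to 248.0 FPKM in EFTUD2 libraries, and the part of all these markers in the results below was not tested. In RNA from bulk cells, fewer cells of a type and less RNA per cell cannot be told apart.

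Most messenger RNAs are cut behind a signal of the form AAUAAA and then receive a tail of adenosines. The cleavage and polyadenylation specificity factor (CPSF) reads the signal, the cleavage stimulation factor (CstF) reads the sequence behind the cut, cleavage factor I (CFI) binds upstream and takes part in choosing the site, and a poly(A) polymerase adds the tail. PABPN1 coats the growing tail in the nucleus, stimulates the polymerase and takes part in setting the tail's length, and the cytoplasmic proteins PABPC1 and PABPC4 bind the finished tail and act in translation and mRNA stability.

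PABPN1 (Entrez gene 8106) lies on the plus strand at chr14:23321289-23326185 (GRCh38, GENCODE release 29). Part of its exons also belongs to a second protein-coding gene entry, BCL2L2-PABPN1 (Entrez gene 100529063, chr14:23306835-23325369). That entry is a readthrough transcript that joins PABPN1 to its upstream neighbor BCL2L2 (Entrez gene 599, chr14:23298790-23311759), which encodes an inhibitor of apoptosis. The reference transcript PABPN1-201 has 7 exons and 2001 exonic bases, of which 653 (32.6%) also lie in exons of the readthrough. Of its 918 coding bases, 567 (61.8%) are shared. In the shorter-coding form PABPN1-202, 653 of 2768 exonic bases (23.6%) and 530 of 888 coding bases (59.7%) are shared. At the other end, 432 of the 579 coding bases of BCL2L2-201 (74.6%) lie in readthrough exons. In RefSeq (GRCh38.p14) the readthrough spans chr14:23306833-23326163 and ends at the same base as PABPN1. By that end, more of the last exon of PABPN1 could be shared. The exonic shares of 32.6% and 23.6% rest on GENCODE and may be too low for the annotation behind the deposited values, which is not known.

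The splice junctions show which stretch tells the entries apart. Each line below gives the last 20 bases of one exon and the first 20 bases of the next, all coding, read 5′ to 3′ on the plus strand of GRCh38, with capitals marking the start of PABPN1 exon 2.
PABPN1-201, exons 1 and 2: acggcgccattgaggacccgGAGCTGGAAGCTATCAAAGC
BCL2L2-PABPN1-201, exons 3 and 4: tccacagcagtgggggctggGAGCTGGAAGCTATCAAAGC
BCL2L2-201, exons 3 and 4: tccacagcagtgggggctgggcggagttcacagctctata
The left side of the PABPN1 junction lies at chr14:23321801-23321820 and that of both other junctions at chr14:23308180-23308199. The right side is chr14:23322181-23322200 in PABPN1 and in the readthrough, and chr14:23308816-23308835 in BCL2L2. A read within the capitals fits PABPN1 and the readthrough equally, and a read within the left part of the readthrough junction fits BCL2L2 too.

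The ends of BCL2L2 and PABPN1 each carry the signal that CPSF reads. It stands in capitals, in its DNA form AATAAA, in these windows at chr14:23311714-23311743 and chr14:23326144-23326173.
BCL2L2-201, 3′ end: ttaaaaacaataAATAAAgcccagaagttt
PABPN1-201, 3′ end: gttgtttttgaaAATAAAaattgtttggcc
A transcript cut behind the first signal is BCL2L2, and a transcript that passes it and is spliced into PABPN1 belongs to the readthrough.

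**Figure D1:**
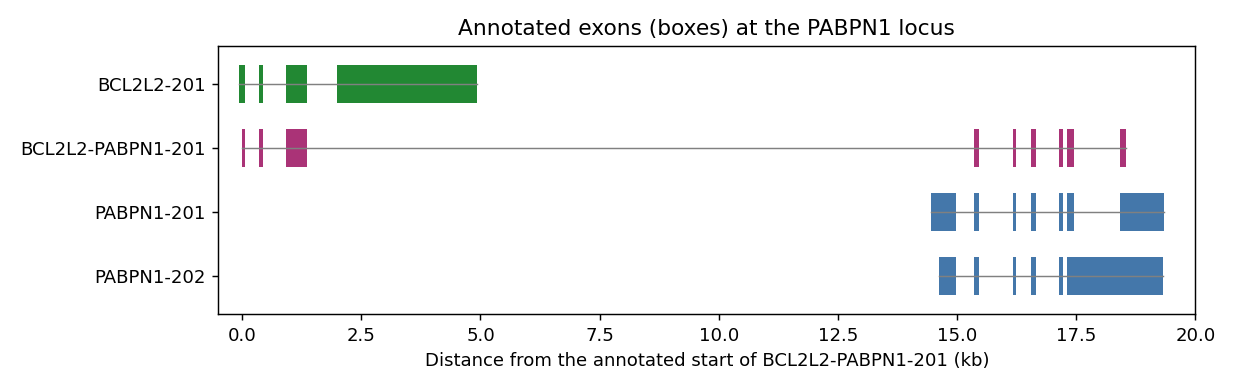
Exons (boxes) of 4 reference transcripts at the PABPN1 locus, drawn to scale against distance in kb from the annotated start of BCL2L2-PABPN1-201. The readthrough takes its first exons from BCL2L2 and the others from PABPN1, and it lacks the first exon of PABPN1 and the last exon of BCL2L2.

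The PABPN1 entry had 10.55, 9.36 and 6.08 FPKM in the controls against 0.06, 0.79 and 0.0 FPKM with EFTUD2. All 3 controls lay above all 3 EFTUD2 libraries, and EFTUD2 replicate 3 is listed at 0. The control mean was 8.66 ± 2.32 FPKM (SD, n = 3), and the EFTUD2 mean of 0.283 ± 0.44 FPKM (SD, n = 3) was 3.27% of it. The difference was -2.93 on the log2(FPKM + 1) scale, which understates changes of low values, and -2.78 without EFTUD2 replicate 3. With limits set after the values were seen, PABPN1 was the 1 gene in the table at 5 FPKM or more in every control and at 1 FPKM or less in every EFTUD2 library, and 1 gene, the provider's entry BGI_novel_G004310, met the same limits in the other direction.

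The readthrough entry held most of the signal of the locus. BCL2L2-PABPN1 had 101.98, 94.61 and 95.22 FPKM in the controls against 86.65, 85.68 and 80.37 FPKM with EFTUD2. The groups did not overlap, and the EFTUD2 mean of 84.2 ± 3.38 FPKM (SD, n = 3) was 86.6% of the control mean of 97.3 ± 4.09 FPKM (SD, n = 3). Its log2 difference was -0.21 (SE 0.09), and limma gave an adjusted p of 0.41. BCL2L2 was at 25.93, 21.22 and 21.88 FPKM in control and at 22.65, 21.27 and 23.61 FPKM in EFTUD2 libraries. These groups overlapped, and the log2 difference was -0.03 (SE 0.12, limma adjusted p = 0.92).

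The difference in PABPN1 was small beside the level of the locus. Summed, PABPN1 and BCL2L2-PABPN1 gave 113.0, 104.0 and 101.0 FPKM in the controls against 86.7, 86.5 and 80.4 FPKM with EFTUD2. From 106.0 ± 5.87 FPKM (SD, n = 3) in control, the mean sum went to 84.5 ± 3.59 FPKM (SD, n = 3) with EFTUD2, which is 79.8% of control, against 3.27% for the PABPN1 entry alone. Of the difference in mean FPKM, -8.38 came from PABPN1 and -13.0 from the readthrough. PABPN1 made up 9.38%, 9.0% and 6.0% of the sum in control and 0.0692%, 0.914% and 0.0% in EFTUD2 libraries. How the authors' counting divided reads of the shared exons between both entries was not tested, and the table holds no junction counts, so a change in transcript choice and a change in that division cannot be told apart here.

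**Figure D2:**
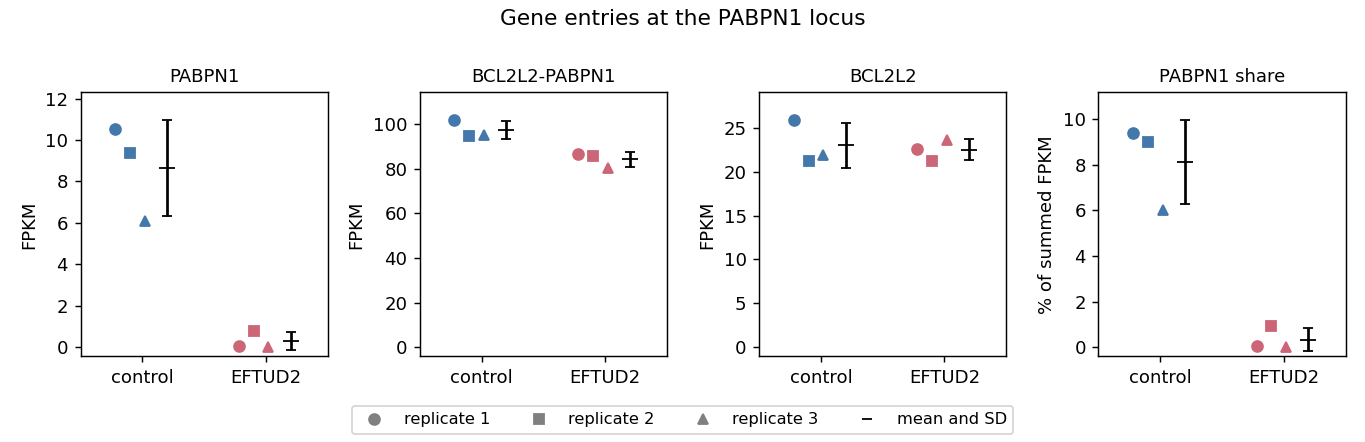
FPKM of PABPN1, BCL2L2-PABPN1 and BCL2L2, and PABPN1 as a percentage of the summed FPKM of PABPN1 and BCL2L2-PABPN1, in each of 3 control and 3 EFTUD2 libraries, with the mean and SD of each group. PABPN1 went from 8.66 to 0.283 FPKM, the readthrough went from 97.3 to 84.2 FPKM, and BCL2L2 overlapped between groups.

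The other 8 factors showed nothing of that size. None of the 8 had an adjusted p under 0.05 in limma, where 0.0% of all genes tested did. At an unadjusted p under 0.05, 0 of the 8 were lower and 0 higher, against 7.9% lower and 4.4% higher among all genes tested. Without overlap between groups, 4 of the 8 (PAPOLA, PAPOLG, CPSF6 and CSTF2) were lower and 0 higher, against 19.4% lower and 7.92% higher of all genes tested, and CPSF6 no longer separated when libraries were scaled by the median of ratios or by quantiles. Their median log2 difference was -0.15, beside -0.07 over all genes tested. Without EFTUD2 replicate 3, the same 4 of 8 were lower and 0 higher, where 25.2% of all genes were lower and 14.7% higher, and the median of the 8 was -0.07.

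Among the tail-binding proteins of the cytoplasm, PABPC1 (Entrez gene 26986, chr8:100685816-100722809, minus strand) was at 362.67, 405.61 and 413.6 FPKM in control and at 411.28, 391.67 and 520.6 FPKM in EFTUD2 libraries. EFTUD2 replicate 3 was the highest library and the groups overlapped. The log2 difference was 0.15 (SE 0.15, limma adjusted p = 0.61), and 0.03 without that library. The annotation names 13 pseudogenes of PABPC1, so reads could be shared with copies. PABPC4 (Entrez gene 8761, chr1:39560816-39576790, minus strand), a close relative, was at 40.24, 57.12 and 51.23 FPKM in control and at 49.29, 54.67 and 36.84 FPKM in EFTUD2 libraries. Here EFTUD2 replicate 3 was the lowest library, and the log2 difference of -0.08 (SE 0.19, limma adjusted p = 0.85) became 0.08 without it. PABPC3, a retrocopy of PABPC1, was at no more than 0.01 FPKM in any library.

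The ratio of PABPC1 to PABPC4 within a library does not depend on scaling by a common factor per library, though quantile scaling can change it. It was 9.01, 7.1 and 8.07 in control and 8.34, 7.16 and 14.1 in EFTUD2 libraries, so that EFTUD2 replicate 3 stood above the other 5. The log2 ratio differed by 0.24 (exact permutation test, two-sided p = 0.6, adjusted p = 0.8 over 4 ratios) and by -0.05 without that library. With 3 libraries against 3, this test cannot give a p below 0.1.

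PAPOLA (Entrez gene 10914, chr14:96501433-96567111, plus strand), the main nuclear poly(A) polymerase, was at 82.5, 80.4 and 77.24 FPKM in control and at 72.87, 69.09 and 63.51 FPKM in EFTUD2 libraries. Every control lay above every EFTUD2 library, and the EFTUD2 mean was 85.6% of control. The log2 difference was -0.22 (SE 0.1, limma adjusted p = 0.4), and -0.17 without EFTUD2 replicate 3. PAPOLG (Entrez gene 64895, chr2:60756230-60802085, plus strand), a related nuclear polymerase, was at 4.82, 5.15 and 4.51 FPKM in control and at 4.34, 4.09 and 3.44 FPKM in EFTUD2 libraries. Those groups did not overlap either, at 82.0% of control and a log2 difference of -0.24 (SE 0.13, limma adjusted p = 0.45). The PAPOLA to PAPOLG ratio was 17.1, 15.6 and 17.1 in control and 16.8, 16.9 and 18.5 in EFTUD2 libraries, with a log2 difference of 0.06 (exact permutation test, p = 0.6, adjusted p = 0.8).

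NUDT21 and CPSF6 form the core of CFI, in which NUDT21 binds UGUA motifs upstream of the cut. NUDT21 (Entrez gene 11051, chr16:56429133-56452199, minus strand) was at 57.52, 64.56 and 62.82 FPKM in control and at 62.9, 54.18 and 62.1 FPKM in EFTUD2 libraries. The groups overlapped, with a log2 difference of -0.05 (SE 0.11, limma adjusted p = 0.84). CPSF6 (Entrez gene 11052, chr12:69239537-69274358, plus strand) was at 14.82, 15.49 and 14.36 FPKM in control and at 13.94, 14.35 and 9.28 FPKM in EFTUD2 libraries. EFTUD2 replicate 3 was far below the other 5 libraries, at 65.6% of the mean of the other EFTUD2 libraries, while EFTUD2 replicate 2 and control replicate 3 were separated only in the last decimal of the table. The log2 difference was -0.26 (SE 0.17, limma adjusted p = 0.5), and -0.07 (limma adjusted p = 0.7) without EFTUD2 replicate 3.

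CPSF7, the alternative partner of NUDT21, was at 25.54, 30.02 and 26.87 FPKM in control and at 27.09, 28.18 and 10.88 FPKM in EFTUD2 libraries. Its low value too was in EFTUD2 replicate 3, and its log2 difference went from -0.41 (SE 0.34, limma adjusted p = 0.56) to 0.01 without that library. The CPSF6 to CPSF7 ratio was 0.58, 0.516 and 0.534 in control and 0.515, 0.509 and 0.853 in EFTUD2 libraries, and the log2 ratio differed by 0.16 (exact permutation test, p = 1.0) with all libraries and by -0.08 without EFTUD2 replicate 3.

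CPSF4 (Entrez gene 10898, chr7:99438922-99457371, plus strand), a zinc finger subunit of CPSF that contacts the AAUAAA signal, was at 21.07, 24.8 and 23.18 FPKM in control and at 23.36, 24.48 and 18.75 FPKM in EFTUD2 libraries. The groups overlapped, and the log2 difference of -0.06 (SE 0.13, limma adjusted p = 0.85) was 0.06 without EFTUD2 replicate 3. Exons of ATP5MF-PTCD1 and AC073063.1 lie across from it on the minus strand, and AL365277.1, AL163051.1 and MIR1279 lie across from PABPC4, PAPOLA and CPSF6. Whether the counting used strand is not given in the sources used here, so reads of such partners cannot be told apart.

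CSTF2 (Entrez gene 1478, chrX:100820359-100840932, plus strand), the CstF subunit that binds the GU-rich sequence behind the cut, was at 13.37, 17.33 and 13.82 FPKM in control and at 10.89, 11.96 and 3.48 FPKM in EFTUD2 libraries. The groups did not overlap, and EFTUD2 replicate 3 stood at 30.5% of the mean of the other EFTUD2 libraries. With a log2 difference of -0.83 (SE 0.4), CSTF2 had the largest difference in size of the 8, and its limma adjusted p was 0.41. Without EFTUD2 replicate 3 the difference was -0.34 (limma adjusted p = 0.27), and CSTF2 was then the 1 member of the 8 with an unadjusted p under 0.05 (12.5%, where 8.87% of all genes tested were lower by that rule).

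CSTF2T (chr10:51695487-51699591, minus strand), a retrocopy of CSTF2 that also encodes a CstF subunit, was at 3.35, 3.54 and 3.19 FPKM in control and at 3.57, 5.08 and 1.23 FPKM in EFTUD2 libraries. EFTUD2 libraries thus held both its highest and its lowest value (log2 difference -0.14, SE 0.35, limma adjusted p = 0.85), and the difference was 0.27 without EFTUD2 replicate 3. The ratio of CSTF2 to CSTF2T was 3.99, 4.9 and 4.33 in control and 3.05, 2.35 and 2.83 in EFTUD2 libraries. Of the 4 ratios compared, it was the 1 whose groups did not overlap, with a log2 difference of -0.69 (exact permutation test, two-sided p = 0.1, the smallest this design allows, adjusted p = 0.4). Without EFTUD2 replicate 3, the log2 difference was -0.71.

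**Figure D3:**
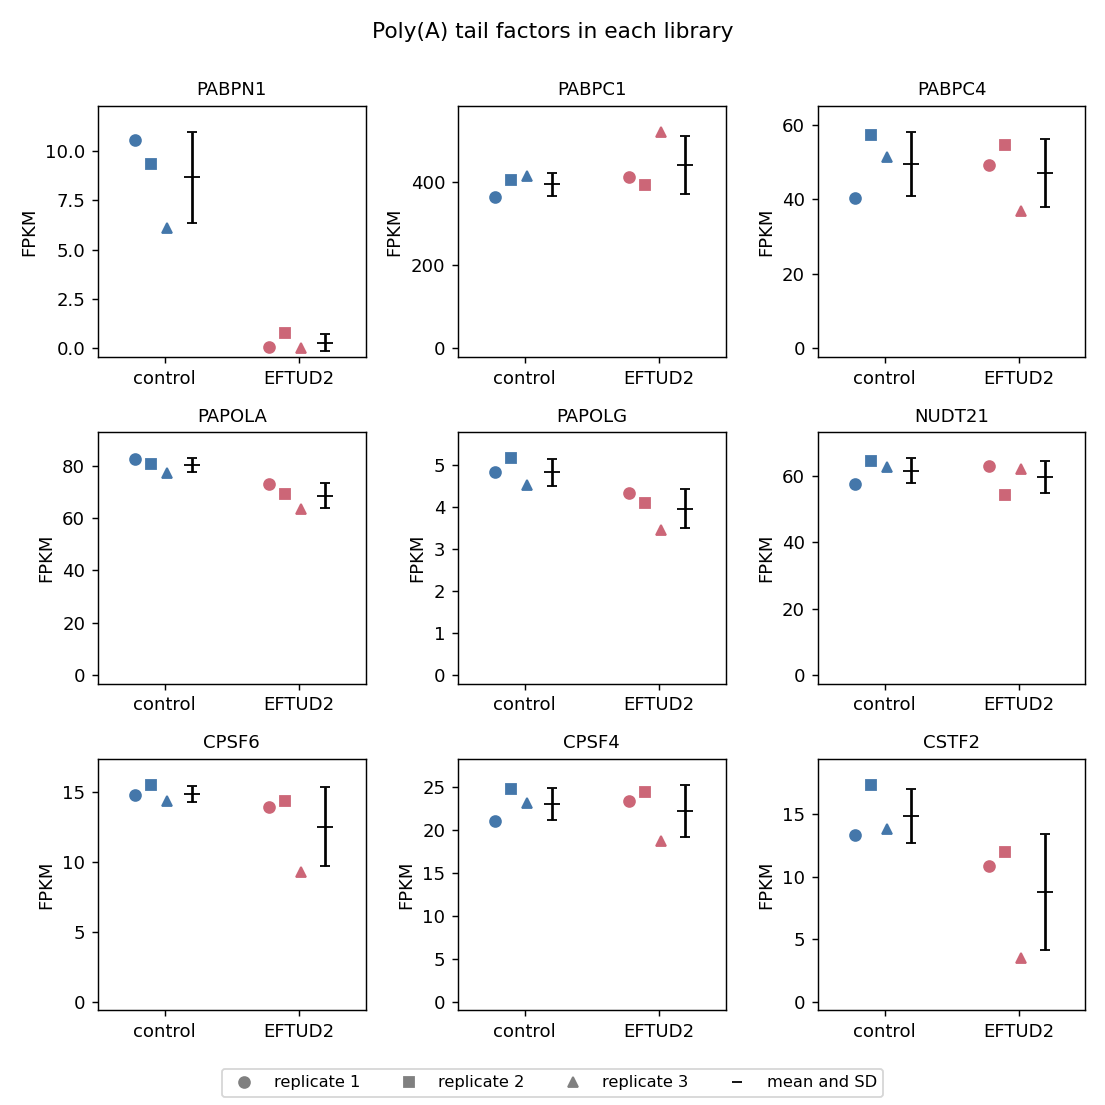
FPKM of the 9 poly(A) tail factors in each of 3 control and 3 EFTUD2 libraries, with the mean and SD of each group on axes that include 0. PABPN1, which was chosen by its fall in these libraries, separated most widely. EFTUD2 replicate 3 was the lowest library for CPSF6 at 9.28 FPKM and for CSTF2 at 3.48 FPKM.

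In control cells, mean levels per transcript length ran from PABPC1 at 394.0 FPKM through PAPOLA (80.0), NUDT21 (61.6), PABPC4 (49.5), CPSF4 (23.0), CPSF6 (14.9), CSTF2 (14.8) and PABPN1 (8.66) to PAPOLG at 4.83 FPKM. CPSF6 and CSTF2 were the 1 neighboring pair in that order whose control libraries overlapped. In EFTUD2 libraries PABPN1 was last, below PAPOLG at 3.96 FPKM, and NUDT21 overlapped PABPC4, CPSF6 overlapped CSTF2, and CSTF2 overlapped PAPOLG. Counted with its readthrough, PABPN1 at 106.0 FPKM in control would stand between PABPC1 and PAPOLA, and at 84.5 FPKM in EFTUD2 libraries it would stand there too.

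The rest of the machinery was followed in a list of 58 genes grouped by function, of which 55 were in the table and 52 tested. In limma 0 of the 52 had an adjusted p under 0.05. At an unadjusted p under 0.05, 8 were lower (15.4% of the 52, against 7.9% of all genes tested) and 0 higher (4.4% of all). Without overlap, 17 were lower (32.7%, against 19.4% of all genes tested) and 2 higher (against 7.92%). Scaling by the median of ratios gave 11 lower and 6 higher of the 52, where 12.1% of all genes tested were lower and 11.9% higher. The median log2 difference was -0.21, against -0.07 for all genes tested, and without EFTUD2 replicate 3 it was -0.06, against -0.04 for all.

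Among 8 other CPSF genes, 4 were lower without overlap (19.4% of all genes tested) and 0 higher (7.92% of all), with a median log2 difference of -0.31 that was -0.16 without EFTUD2 replicate 3. FIP1L1, which ties the polymerase to CPSF, was at 17.89, 18.83 and 17.14 FPKM in control and at 14.05, 13.24 and 9.49 FPKM in EFTUD2 libraries (log2 difference -0.53, SE 0.16, limma adjusted p = 0.4). CPSF2, a scaffold beside the nuclease, was at 21.2, 20.76 and 18.16 FPKM in control and at 16.75, 16.11 and 10.56 FPKM in EFTUD2 libraries. RBBP6, an activator of cleavage, was at 24.27, 18.0 and 17.87 FPKM in control and at 14.89, 15.29 and 14.14 FPKM in EFTUD2 libraries. In all 3 genes every EFTUD2 library was below every control, by -0.53, -0.47 and -0.4 on the log2 scale, and by -0.37, -0.27 and -0.37 without EFTUD2 replicate 3. The fourth was WDR33, which contacts AAUAAA together with CPSF4 and was named after its values were seen (log2 difference -0.35, SE 0.11, limma adjusted p = 0.4). CPSF4 itself overlapped.

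The median of 3 other CFI and CFII genes was -0.45, and -0.14 without EFTUD2 replicate 3. That of 3 other CstF genes was -0.14, and 0.05 without that library. PCF11, a CFII subunit that links cleavage to termination, was at 8.6, 6.12 and 6.19 FPKM in control and at 5.24, 4.97 and 3.72 FPKM in EFTUD2 libraries (log2 difference -0.49, SE 0.18, limma adjusted p = 0.4, and -0.37 without EFTUD2 replicate 3). CSTF1, the CstF partner of CSTF2, was at 36.89, 37.13 and 34.55 FPKM in control and at 30.43, 28.61 and 18.01 FPKM in EFTUD2 libraries (log2 difference -0.51, SE 0.2, limma adjusted p = 0.4). Like CSTF2, CSTF1 had no overlap between groups and its lowest value in EFTUD2 replicate 3, at 61.0% of the mean of the other EFTUD2 libraries, and its log2 difference was -0.29 without that library.

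Among 5 other poly(A) polymerases, MTPAP, the mitochondrial one, was lower, at 6.03, 5.77 and 4.07 FPKM in EFTUD2 libraries against 7.15, 6.99 and 6.06 FPKM in control (log2 difference -0.31, SE 0.17, limma adjusted p = 0.43, and -0.16 without EFTUD2 replicate 3). TENT4A, a noncanonical polymerase named after its values were seen, was the 1 higher, at 10.49, 11.07 and 11.36 FPKM against 9.55, 9.01 and 9.49 FPKM (log2 difference 0.21, SE 0.1, limma adjusted p = 0.42). Neither passed the test. Of the other tail-binding genes, 3 of 5 in the table were tested. PABPC4L was listed at 0 in every control and at 0.18, 0.64 and 0.01 FPKM in EFTUD2 libraries. It passed the filter on low values only through the EFTUD2 libraries and so had to differ, and it is 1 of the 2 genes of the list counted as higher. The EFTUD2 library with most VIM, replicate 2 at 59.59 FPKM, also held most PABPC4L, and the library with least of both was replicate 3, whose VIM was 2.87 FPKM. That order rests on 3 libraries and on PABPC4L values near 0, and a link between these genes was not tested.

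Genes that remove tails or work on bound mRNA were counted in the same way. Without overlap, 4 of 16 genes of the deadenylases, which shorten tails, were lower (25.0%, near the 19.4% of all genes tested). Of the 16, 0 were higher (7.92% of all), and the median was -0.1. Scaled by the median of ratios, 1 was lower and 2 were higher (12.1% and 11.9% of all genes tested), with a median of 0.01. CNOT9, CNOT11 and PAN3, subunits of the CCR4-NOT and PAN2-PAN3 deadenylases, had log2 differences of -0.3, -0.17 and -0.17, with limma adjusted p of 0.42, 0.45 and 0.56, and of -0.15, -0.11 and -0.16 without EFTUD2 replicate 3. Of 8 partners of PABPC1, 2 were lower (25.0%, again near the 19.4% of all genes tested) and 0 higher (7.92% of all). Their median was -0.19, and -0.01 without EFTUD2 replicate 3. LARP4, which binds PABPC1 and protects tails, was at 23.55, 22.87 and 20.4 FPKM in control and at 18.41, 18.1 and 17.03 FPKM in EFTUD2 libraries (log2 difference -0.3, SE 0.1, limma adjusted p = 0.4). GSPT1, the termination factor that contacts PABPC1, was at 69.55, 79.19 and 72.59 FPKM in control and at 64.85, 61.71 and 53.79 FPKM in EFTUD2 libraries (log2 difference -0.29, SE 0.11, limma adjusted p = 0.4).

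Nuclear decay genes, whose products degrade RNAs marked by PABPN1 among others, were lower without overlap in 4 of 6 (19.4% of all genes tested). They were higher in 0 (7.92% of all), with a median of -0.29 and no gene at an unadjusted p under 0.05. The count was 2 lower and 1 higher under the median of ratios, against 12.1% and 11.9% of all genes tested. Under quantiles it was 1 lower and 1 higher, against 15.5% lower and 1630 of 17222 higher among all. The median was -0.15 without EFTUD2 replicate 3. EXOSC10, a nuclease of the nuclear exosome, was at 37.85, 38.67 and 33.95 FPKM in control and at 29.64, 31.39 and 16.49 FPKM in EFTUD2 libraries (log2 difference -0.54, SE 0.24, limma adjusted p = 0.4). MTREX, its helicase, and DIS3, another exosome nuclease, had log2 differences of -0.42 and -0.24. Without EFTUD2 replicate 3 the differences of EXOSC10, MTREX and DIS3 were -0.26, -0.21 and -0.16. All 6 genes had their lowest value in EFTUD2 replicate 3.

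That library was the lowest of the 6 for 6 of the 8 poly(A) tail factors other than PABPN1 (75.0%), for 36 of the 52 other machinery genes (69.2%) and for 7879 of the 17222 genes tested (45.7%). The exceptions among the 8 were PABPC1, for which it was the highest, and NUDT21.

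**Figure D4:**
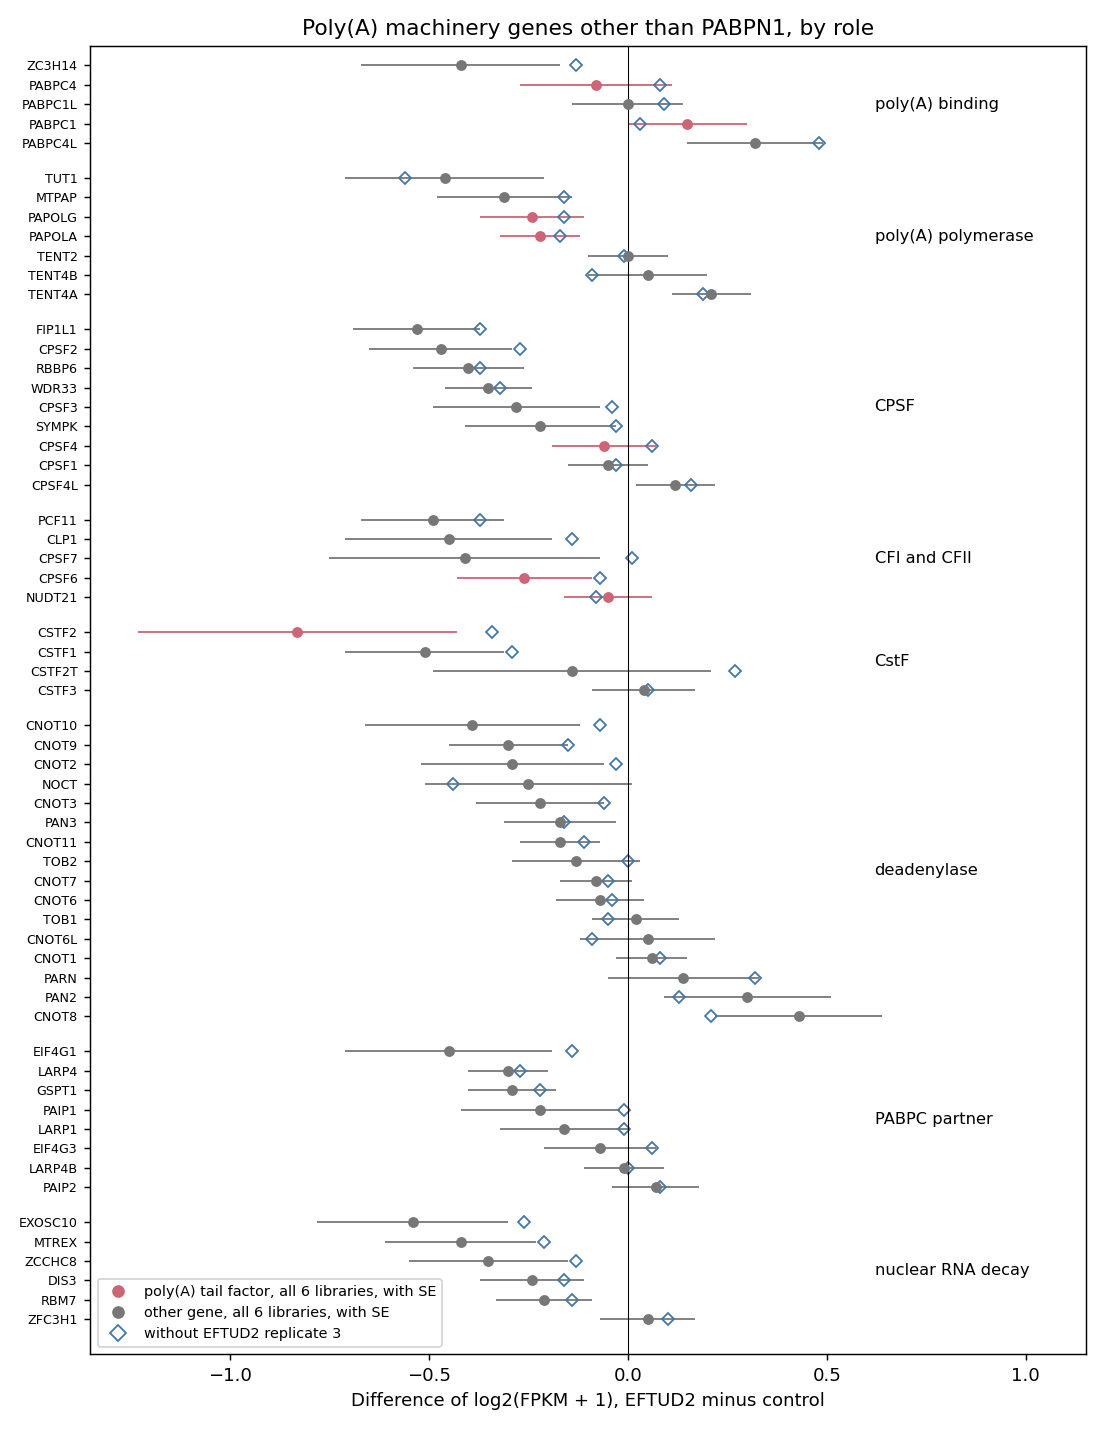
Difference of log2(FPKM + 1), EFTUD2 minus control, for the 8 poly(A) tail factors other than PABPN1 and the 52 other machinery genes tested, grouped by role, with the limma standard error as bars and the value without EFTUD2 replicate 3 as open diamonds. CSTF2 lies farthest to the left at -0.83 and moves to -0.34 without that library.

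The profile of PABPN1 across the 6 libraries was compared with that of 12554 genes whose mean reached 1 FPKM, as the root mean square distance between log2(FPKM + 1) values centered on their mean, a description that takes in the fall by which PABPN1 was chosen. The nearest were SCGN at 0.68, SOX4 at 0.77, LOC105379443 at 0.8, the provider's entry BGI_novel_G004248 at 0.82 and TUBA1A at 0.85. SCGN was at 18.97, 17.13 and 14.82 FPKM in control and at 5.13, 5.12 and 3.78 FPKM in EFTUD2 libraries. SOX4 was at 15.75, 14.26 and 14.55 FPKM in control and at 5.58, 5.16 and 3.09 FPKM in EFTUD2 libraries. Both stayed at 3 FPKM or more in every EFTUD2 library, where PABPN1 was under 1 FPKM. None of the other 8 poly(A) tail factors was among the 5 nearest.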

How the data were processed

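RNA was extracted with TRIzol from 3 control and 3 EFTUD2 libraries of Hep G2 cells, enriched for poly-A RNA and sequenced on the BGISEQ-500 platform. The authors deposited FPKM values per gene, rounded to 2 decimals, in 1 table. The submitters' processing notes name HISAT2, Bowtie2, RSEM and DESeq2, and the build hg38. The roles of these tools, their versions, the annotation and the use of strand are not given in the sources used here. RSEM can divide reads between overlapping transcripts by estimation. No gene counts were used. The paper reports genes differentially expressed between these groups, so the numbers of genes called here hold for limma on FPKM values only. Low values showed no common step from which depth could be read (the commonest ratio to control replicate 1 held 2.02% of such genes at most), so depth is unknown and no counting interval is given. Of 18762 Entrez numbers, 18449 matched the NCBI gene table (GRCh38.p14). The table lists 1365 genes at 0 throughout.

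Values were compared as log2(FPKM + 1). Genes whose mean reached 0.1 FPKM (17222) were fitted with limma 3.58.1 (lmFit, eBayes with trend) in R 4.3.3, with Benjamini-Hochberg adjustment over all genes tested and a threshold of 0.05. The fit was tested on simulated data with independent noise in every library and large added shifts. That run does not show how the fit treats small differences or a deviating library. Ratios were compared by exact two-sided permutation tests. Transcripts, exons and sequences came from GENCODE release 29 (GRCh38). Python 3.11.15, pandas 2.3.3, scipy 1.17.1 and matplotlib 3.10.9 were used.

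The members and gene lists were chosen with earlier results of these data known. Besides the members, EFTUD2, entries of the locus, retrocopies and CPSF7, the genes named were up to 3 per role with groups that did not overlap and the largest differences, and the 5 nearest profiles. PABPN1L, PABPC3 and PAIP2B fell below the filter, and PABPC5, PAPOLB and GSPT2 were not analysed here. Alternatives were pseudocounts of 0.1 and 0.01 (for ratios, 1 against none), no filter, a filter at a mean of 1 FPKM, scaling by the median of ratios, by quantiles or to a common sum, robust empirical Bayes, array weights, a replicate block, and each library left out. The comparison of readthrough pairs and the PABPN1 share of the summed FPKM were chosen after seeing the data.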

Additional observations from a re-analysis of the deposited data

How the results depend on the processing

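Of 128 values of the 8 factors other than PABPN1 under alternatives, 116 kept direction and side of the threshold, 12 reversed and 0 passed the test. Scaling by the median of ratios turned PABPC4 to 0.03, NUDT21 to 0.07, CPSF4 to 0.06 and BCL2L2 to 0.09 on the log2 scale. Quantile scaling turned NUDT21 to 0.01, CPSF4 to 0.07 and BCL2L2 to 0.09. Array weights turned PABPC1 to -0.03, PABPC4 to 0.04, CPSF4 to 0.04 and CSTF2T to 0.38. With 1 library left out, PABPC4 ranged from -0.22 to 0.08, NUDT21 from -0.09 to 0.02, CPSF4 from -0.13 to 0.06, BCL2L2 from -0.08 to 0.06, CSTF2T from -0.45 to 0.27, CPSF7 from -0.64 to 0.01, the PABPC1 to PABPC4 ratio from -0.05 to 0.44 and the CPSF6 to CPSF7 ratio from -0.08 to 0.29. The cause was not tested.

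PABPN1 differed by -5.14 with a pseudocount of 0.1 and -6.68 with 0.01, which weigh low values more, and the sum with its readthrough by -0.21 under the median of ratios. Over all genes, limma called 0 genes, 1246 with array weights and 0 to 131 with 1 library left out, the 131 without EFTUD2 replicate 3. Of the machinery list, array weights called 1 gene, PABPC4L, which is listed at 0 in every control and passed the filter only through the EFTUD2 libraries, so the call supports nothing. Genes of that list lower without overlap numbered 11 under the median of ratios, where 12.1% of all genes tested were lower. Those higher numbered 1 of 50 with a mean of at least 1 FPKM, where 873 of all 12556 genes were higher. Of 52, 6 were higher under the median of ratios (11.9% of all genes tested) and 4 under quantiles (1630 of all 17222). With 1 library left out, 2 to 7 were higher, the 7 without EFTUD2 replicate 3, where 14.7% of all genes tested were higher. Of genes at an unadjusted p under 0.05, 35.7% were higher as deposited and 57.1% under the median of ratios.

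The deviations of log2(FPKM + 1) from each gene's group mean were correlated between control and EFTUD2 libraries. For libraries of the same number these deviations correlated at -0.3, 0.35 and -0.09, so the numbers were not taken to pair the libraries. With the replicate block, limma called 0 genes over all and 0 of the 8 factors, and CSTF2 stood at -0.83. By these deviations from the group mean, not every library correlated best with its own number. FPKM without read numbers limits every low value, PABPN1 in EFTUD2 libraries among them.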

Other observations

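Entries named for a joined pair of genes were compared in the same way as the PABPN1 locus, after the data were seen and with no test. The table held 55 such pairs with a mean summed level of at least 1 FPKM, and for each the downstream gene was taken as a share of the sum of itself and the joined entry. Among the 54 pairs other than BCL2L2-PABPN1, the share was lower in EFTUD2 libraries without overlap in 8 and higher in 0, and the median difference was -0.272 percentage points. By level instead of share, 19.4% of all genes tested were lower without overlap and 7.92% higher. The 8 falls ran from -0.157 points for TGIF2-RAB5IF to -20.7 points for TNFSF12-TNFSF13, and the pairs shown next had the largest. COMMD3-BMI1, with BMI1 at 99.3%, 92.5% and 95.4% of the sum in control and at 85.1%, 89.8% and 77.0% in EFTUD2 libraries, was among the 8. TNFSF12-TNFSF13 was another, with TNFSF13 at 70.2%, 78.9% and 70.8% in control and at 60.0%, 65.0% and 32.7% in EFTUD2 libraries. The largest fall was that of PAM16 beside CORO7-PAM16, at 59.1%, 0.0% and 35.0% in control and 1.61%, 0.0% and 0.0% in EFTUD2 libraries. The PAM16 groups overlapped, with control replicate 2 at 0.0%, and the mean sum of that pair was 5.3 FPKM, against 95.2 FPKM for BCL2L2-PABPN1. Of the 54 other pairs, 0 had a downstream share under 1% in every EFTUD2 library. That limit was set after the PABPN1 shares were seen and lies just above the highest of them, 0.914% in EFTUD2 replicate 2. PAM16 missed it only by its 1.61% in EFTUD2 replicate 1, so the count does not set PABPN1 apart.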
